A study of Mus musculus with 6 samples.

Results

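The 7 genes described here, Cd36, Fabp4, Gpihbp1, Lpl, Meox2, Tcf15 and Pparg, carry or control the uptake of fatty acids by capillary endothelial cells. They were taken by symbol from the 32285 genes in the count matrices, and each symbol was found once. Their UMI counts were summed in each of 6 single-cell RNA libraries of mouse heart cells other than cardiomyocytes, over 32030 kept cells, of which 6958 were blood endothelial cells. Wild-type mice (WT, strain C57BL/6JRj) and Trpm4 knockout mice (KO, strain B6.Cg-Trpm4tm1.2-PG), all male and 8 to 12 weeks old, were sampled at 24 h after a sham operation, or at 24 h or 72 h after the LAD, a main coronary artery, was ligated, which infarcts the muscle it supplies. Trpm4 is a cation channel opened by calcium. There is no sham group at 72 h, so both ligation times were compared with the sham operation at 24 h. Each of the 6 groups is 1 library that pools live sorted cells of the ventricles of 4 mice, so no difference has a replicate check and no test was made. All intervals are 95% intervals that cover counting error alone, not differences among mice, operations or libraries.

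Heart muscle burns mainly fatty acids, most of which arrive in triglyceride-rich lipoproteins. Lipoprotein lipase, made largely by muscle and fat cells, is carried across the capillary wall by GPIHBP1 and releases fatty acids at the luminal surface. CD36 takes them into the endothelial cell, and the lipid chaperone FABP4 binds them in the cytosol. The transcription factors MEOX2 and TCF15 act together to drive this programme in cardiac endothelium, and the nuclear receptor PPARG, a sensor of fatty acids, is an activator of Cd36 and Fabp4 in several cell types.

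The libraries differed in depth and in makeup. Deposited cells numbered 3625 to 7286 per library, and UMIs 20995280 to 45649061. The KO library at 72 h was the shallowest, with a median of 1351 UMIs per kept cell against 3075 to 8008 in the other 5. Among the endothelial cells compared here the gap was smaller, with medians of 2031 in that library and 2888.5 to 4129 in the others. All 11 endothelial markers had UMIs in the endothelial cells of every library. The most widely detected of them was in 95.3% to 99.0% of these cells in 5 libraries and in 68.8% in KO at 72 h. The most widely detected monocyte/macrophage marker was in 71.9% of them in KO at 72 h, against 17.9% to 29.8% in the others. The KO values at 72 h therefore rest on a less clearly marked class. A further cluster of 869 cells with few UMIs (median 1026), led by hemoglobin genes and with endothelial markers, stayed unnamed and was left out. Trpm4 UMIs were found in KO as well as WT libraries, at 6.20, 3.46 and 2.57 CPM in KO against 8.79, 5.52 and 4.29 CPM in WT (sham, 24 h, 72 h). What the allele deletes is not given in the labels, so these counts do not check it. Of the barcodes, 118 occurred in more than 1 library, at most 14 for any pair.

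In GENCODE M21 on GRCm38, all 7 are protein-coding genes. Cd36 lies at chr5:17781690-17888801 on the minus strand, Fabp4 at chr3:10204088-10208576 on the minus strand, Gpihbp1 at chr15:75596628-75599481 on the plus strand and Lpl at chr8:68880491-68907448 on the plus strand. Of the regulators, Meox2 lies at chr12:37108540-37179534, Pparg at chr6:115360951-115490399 and Tcf15 at chr2:152143561-152149097, each on the plus strand. RefSeq promoter sequences on GRCm38.p6 were matched for 3 of the 7 members, Cd36, Meox2 and Pparg. The 250 bases before the start of Cd36, an uptake gene, and of Meox2, a regulator, are shown as windows that overlapped no annotated exon, 1 with and 1 without the site marked (chr5:17835897-17836146, minus strand, and chr12:37108290-37108539, plus strand). The Cd36 window precedes a start inside the gene span given above, not the 5′ end of that span at 17888801. Both windows are written 5′ to 3′, and capitals mark the sequence AGGTCA on either strand, the single site of nuclear receptors such as PPARG.
Cd36: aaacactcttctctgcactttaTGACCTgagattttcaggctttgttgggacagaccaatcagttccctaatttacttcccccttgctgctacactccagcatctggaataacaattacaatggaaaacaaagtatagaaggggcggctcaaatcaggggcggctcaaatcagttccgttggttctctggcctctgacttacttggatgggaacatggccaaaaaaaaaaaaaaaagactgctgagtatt
Meox2: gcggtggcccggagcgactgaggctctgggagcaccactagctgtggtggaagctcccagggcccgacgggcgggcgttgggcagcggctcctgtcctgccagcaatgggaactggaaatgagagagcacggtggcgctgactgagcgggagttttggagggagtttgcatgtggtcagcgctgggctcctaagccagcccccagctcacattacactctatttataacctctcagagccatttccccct
The Cd36 window held 1 such site, whose first base lies 228 bases before the start, and the Meox2 window held 0. This sequence was present in 14.0% of 32851 promoter windows of the same length. Neither window held the full direct repeat AGGTCANAGGTCA, found in 0.0335% of windows, or TAATTA, a homeobox core found in 4.84%. Each held 1 CANNTG, the E-box recognised by factors of the TCF15 class, as did others among the 66.2% of windows with at least 1. Each motif was searched on both strands, and AGGTCA is part of the direct repeat.

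Blood endothelial cells held the highest level of most members. Among classes with at least 50 cells in a library, they ranked first in all 6 libraries for Cd36, Fabp4, Gpihbp1, Meox2 and Tcf15. Smooth muscle cells, 27 in WT and 15 in KO at 72 h, were too few to be ranked at that time, and their Tcf15 is given below. Pparg ranked first in endothelial cells in 5 libraries, and in the KO library at 72 h lymphatic endothelial cells stood higher (39.7 against 20.1 CPM, from 16 and 15 UMIs). Lpl ranked first in endothelial cells in the 4 libraries at 24 h. At 72 h endothelial cells stood lower for Lpl in WT than cycling cells (228 CPM), a residual class named for cardiomyocyte markers (213 CPM) and monocyte/macrophage cells (168 CPM), and in KO than fibroblasts (203 CPM) and monocyte/macrophage cells (163 CPM). CPM is the gene's UMIs over all UMIs of the cells summed, scaled to the usual common total.

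**Figure D1:**
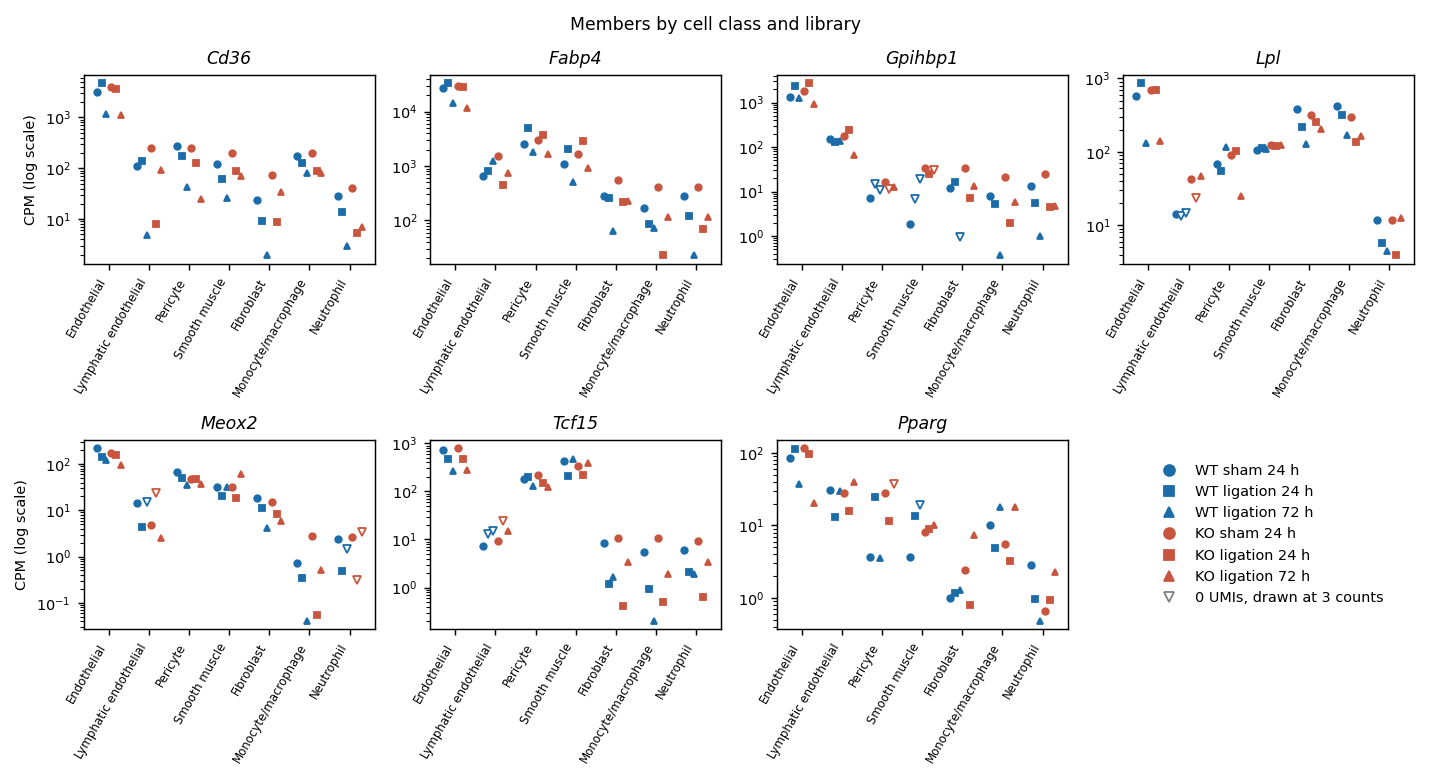
Level of each member (CPM, log axis) in 7 cell classes. Each point is 1 library, blue for WT and red for KO, with circles for sham, squares for ligation at 24 h and triangles for ligation at 72 h, and open triangles mark 0 UMIs drawn at 3 counts. Endothelial points stand highest for Cd36, Fabp4, Gpihbp1 and Meox2 in every library, whereas Lpl in endothelial cells at 72 h (134 CPM in WT and 142 in KO) lies within the range of fibroblasts.

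Neutrophils, which are not a known source of Gpihbp1, Meox2 or Tcf15, were taken as the background of free RNA. Their Fabp4 level was 279 CPM in WT and 411 in KO at sham, and 23.0 to 123 CPM in the 4 ligation libraries. At WT sham there were 101 Cd36 and 48.7 Gpihbp1 UMIs per 1000 Fabp4 UMIs in neutrophils, and 118 and 49.1 in endothelial cells. After ligation the 2 classes lay further apart for Gpihbp1, with 39.6 to 64.4 UMIs per 1000 in neutrophils and 70.9 to 95.2 in endothelial cells. Neutrophil levels were at most 40.3 CPM for Cd36, 25.4 for Gpihbp1 and 12.7 for Lpl. Other classes held more in some libraries. B cells in WT at 24 h after ligation (101 cells) held 680 CPM of Fabp4, 63.4 of Cd36, 25.9 of Gpihbp1 and 25.9 of Lpl. In WT at 72 h their Fabp4 was 5.25 CPM, below neutrophils. At KO sham, platelets (63 cells) and the class named for cardiomyocyte markers (52 cells) held 3453 and 3720 CPM of Fabp4. Endothelial levels exceeded the neutrophil level of the same library in each library for all 7 members. Adipocytes, which also make Fabp4, Lpl and Pparg, left almost no UMIs in the endothelial cells, where 6 adipocyte markers summed to at most 1.35 CPM and Adipoq, Cidec and Lep were at 0 in every library.

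At 24 h after ligation both lipoprotein genes stood higher than at sham in WT endothelial cells. At 72 h, with all endothelial UMIs summed, Lpl stood over 4-fold lower in both genotypes. Lpl, the lipase itself, stood at 577 CPM (561 to 593) in WT sham, 863 (831 to 896) at 24 h and 134 (116 to 154) at 72 h. In KO it stood at 704 CPM (689 to 719), 701 (667 to 737) and 142 (116 to 172). Both 72 h libraries lay far below the other 4, with no overlap. The log2 ratio of 72 h to sham was −2.11 (−2.32 to −1.90) in WT and −2.31 (−2.60 to −2.03) in KO. Its size depended on the cells and weights used: over the settings it ran from −2.62 to −0.67 in WT and from −2.67 to −1.43 in KO.

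Gpihbp1, the carrier and anchor of the lipase, stood at 1340.3 CPM (1316 to 1365), 2364 (2310.3 to 2418) and 1256 (1200.3 to 1314) in WT at sham, 24 h and 72 h. In KO it stood at 1865 (1840.5 to 1889), 2734 (2665 to 2803) and 909 (842 to 979.8). The 24 h ligation library was the highest of its genotype in both, with log2 ratios to sham of 0.82 in WT and 0.55 in KO. At 72 h WT was slightly below sham (−0.09, −0.16 to −0.02), a direction that turned with the cells summed (0.68 in capillary-like and arterial-like cells alone), while KO was 2-fold lower (−1.04, −1.15 to −0.93).

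The uptake genes Cd36 and Fabp4 stood above sham at 24 h in WT and below it in both genotypes at 72 h. In KO their direction at 24 h turned with the cells summed: both were slightly below sham over all endothelial cells, and above it in capillary-like cells (log2 ratio 0.26 for each) and arterial-like cells (0.29 for each), 2 kinds of endothelial cell described below. The difference between genotypes was not tested. Cd36, the fatty acid translocase, stood at 3209.8 CPM (3172 to 3248), 4739 (4663 to 4816) and 1156 (1102 to 1211) in WT. In KO it stood at 3999.6 (3964 to 4035), 3679 (3599 to 3759) and 1113 (1038 to 1191). At 24 h it was above sham in WT (log2 ratio 0.56, 0.53 to 0.59) and slightly below in KO (−0.12, −0.15 to −0.09), and the 72 h libraries of the 2 genotypes overlapped within counting error. Their log2 ratios to sham were −1.47 in WT and −1.85 in KO.

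Fabp4, the lipid chaperone, stood at 27315 CPM (27205 to 27426), 33355 (33153 to 33558) and 14608 (14416 to 14802) in WT. In KO it stood at 29793 (29697 to 29890.0), 28728 (28506 to 28952) and 11857 (11612 to 12107). The library at 24 h was the highest of the 3 in WT and lay just below sham in KO (log2 ratio −0.05). The log2 ratio of 72 h to sham was −0.90 in WT, short of 2-fold, and −1.33 in KO.

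The regulators did not all follow the same course. Pparg stood at 84.5 CPM (78.5 to 90.9), 114 (102 to 126) and 36.9 (27.9 to 48.0) in WT, and at 116 (109.7 to 122), 96.8 (84.3 to 111) and 20.1 (11.3 to 33.2) in KO. It followed the order of Cd36, higher than sham at 24 h in WT, lower in KO, and lowest at 72 h in both, where it rested on 56 and 15 UMIs.

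Meox2 and Tcf15 were already lower at 24 h in WT. Meox2 stood at 219 CPM (209 to 229), 142 (129 to 156) and 124 (107 to 143) in WT, and at 175 (168 to 183), 155 (139 to 173) and 98.0 (76.8 to 123) in KO. Tcf15 stood at 734 (716 to 752), 465 (441 to 489) and 265 (239 to 292) in WT, and at 782 (766 to 798), 478 (449 to 507) and 281 (244 to 321) in KO. For Tcf15 the order of sham, 24 h and 72 h was the same in both genotypes over all endothelial cells, with no overlap between times, and for Meox2 the intervals of 24 h and 72 h overlapped in WT. In capillary-like cells Tcf15 was not lower at 72 h than at 24 h, with 684 and 772 CPM at 24 h and 72 h in WT and 692 and 693 in KO.

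**Figure D2:**
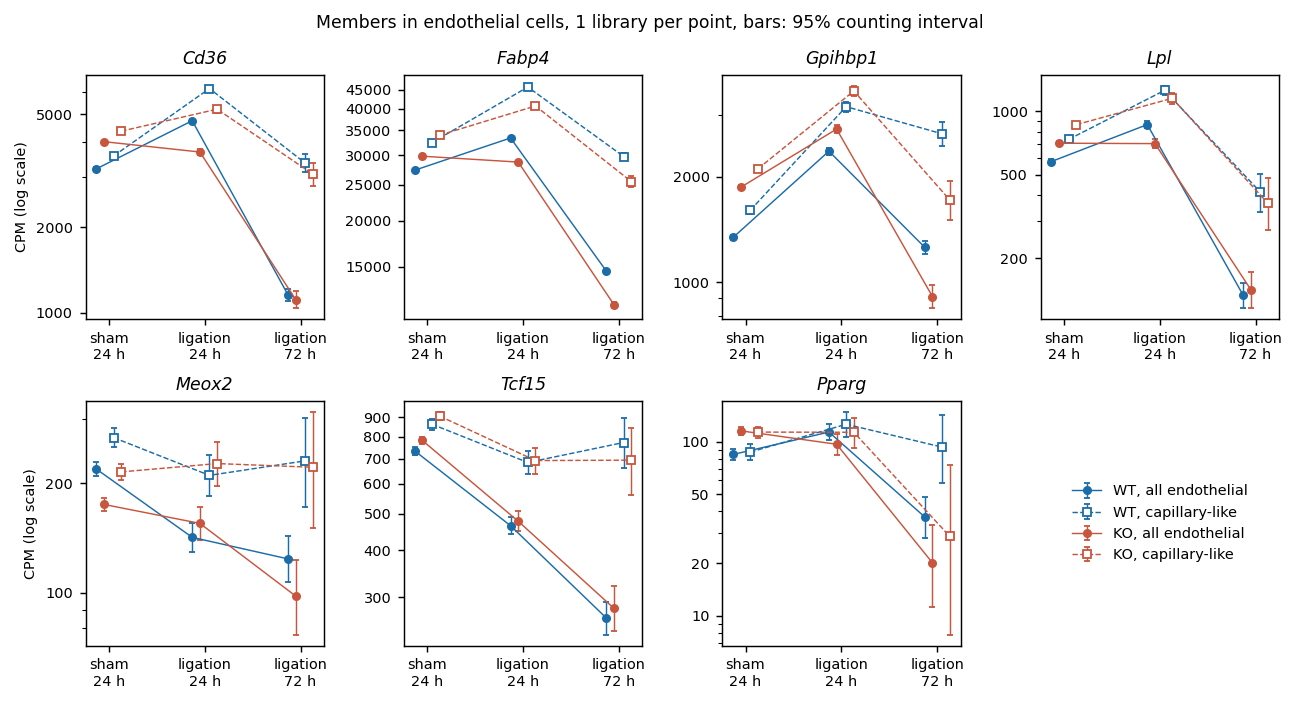
Level of each member (CPM, log axis) at sham 24 h, ligation 24 h and ligation 72 h in WT (blue) and KO (red), in all endothelial cells (filled circles, solid lines) and in capillary-like cells alone (open squares, dashed lines). Bars are 95% counting intervals and each point is 1 library. At 72 h the capillary-like level of Cd36 (3360.4 CPM in WT) lies far above that of all endothelial cells (1156 CPM), and Lpl alone among the 4 uptake and lipase genes lies well below sham in both sets and both genotypes.

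A member was counted as lower or higher when it differed at least 2-fold, with at least 50 UMIs over the pair of libraries; all 7 members had that many in every endothelial comparison. At 24 h against sham, 0 of 7 members were lower in either genotype, where 2.46% (WT) and 1.74% (KO) of all genes measured were. At 72 h against sham, 4 of 7 were lower in WT (Cd36, Lpl, Tcf15 and Pparg) against 10.4% of 9748 genes, and 6 of 7 in KO (all but Meox2) against 8.53% of 10015 genes. The median log2 ratio of the members was −1.19 in WT and −1.48 in KO, against −0.09 and −0.03 over all genes. From 24 h to 72 h, 4 of 7 were lower in WT and 5 of 7 in KO, against 7.36% and 4.96% of genes. In the 6 comparisons within a genotype, 0 of 7 members were 2-fold higher, where 3.68% (WT) and 3.47% (KO) of genes were at 24 h against sham, 6.65% and 8.17% at 72 h against sham, and 3.4% and 3.68% at 72 h against 24 h. The WT count at 72 h against sham rested on the way cells were summed: it was 1 when each cell had equal weight, 0 when cells were thinned to 1000 UMIs, and 0 in capillary-like and arterial-like cells alone. The KO count was 5, 6 and 2 under the same 3 settings.

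The makeup of the endothelial cells also differed between libraries, and its part in these summed levels was not tested. Clusters of endothelial cells, made without the 7 members, were named capillary-like, arterial-like, angiogenic-like, endocardial-like and interferon-like from marker genes. These names were rebuilt from the counts and are not the authors' annotation. Capillary-like cells were 51.7% and 55.5% of endothelial cells at sham (WT and KO), 40.3% and 44.8% at 24 h, and 35.0% and 23.4% at 72 h. Angiogenic-like cells, which express genes of sprouting vessels, were 2.26% and 1.98% at sham, 22.7% and 17.7% at 24 h, and 30.0% and 19.5% at 72 h. Angiogenic-like cells had a median of 10613 UMIs in WT at 72 h, against 2521 in capillary-like cells, and made up 57.9% of the endothelial UMIs of that library. In KO at 72 h they made up 36.9%, and endocardial-like cells, 40.3% of the cells, another 31.2%. Endothelial cells were also fewer, 42.2% and 52.8% of kept cells at sham and 5.09% and 3.39% at 72 h (223 and 231 cells). The low-UMI cluster with endothelial markers that was left out held 428 cells in KO at 72 h and 30 in WT at 72 h, against 92 to 128 in the other 4 libraries. Other-class markers in the endothelial cells moved too: the 15 monocyte/macrophage markers summed to 146 CPM in WT sham and 98.7 in KO sham, and to 801 and 3038 at 72 h, all 15 with UMIs in each library, and the 10 neutrophil markers to 93.5 to 338 CPM in 4 libraries and to 1736 and 1462 in KO at 24 h and 72 h, with Ly6g at 0 in all 6. The 5 erythroid markers summed to 5078 and 5569 CPM at sham (WT and KO) and to 10.6 to 52.3 CPM in the 4 ligation libraries, where Alas2 was at 0. The 5 platelet markers summed to 46.6 and 39.3 CPM at sham, 169 and 110 at 24 h, and 374 and 387 at 72 h, where Gp1bb was at 0. The 9 dendritic cell markers summed to 46.2 to 72.5 CPM in 5 libraries and to 686 in KO at 72 h, with Xcr1 at 0 in all 6. Their part in the member levels was not tested.

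**Figure D3:**
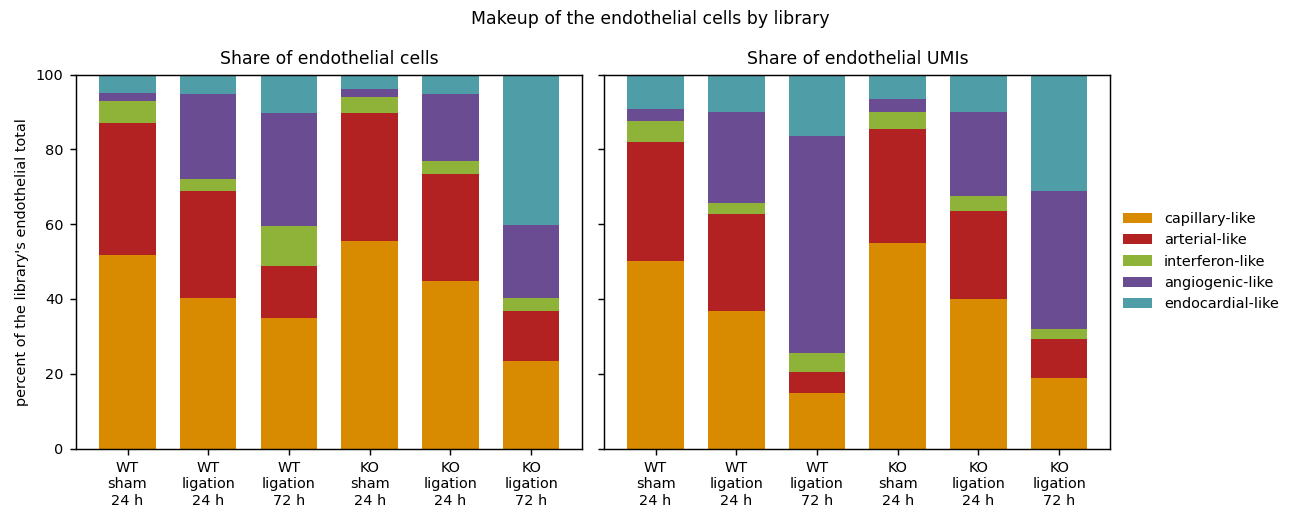
Makeup of the endothelial cells of each library as a percent of cells (left) and of UMIs (right). Capillary-like cells go from 51.7% (WT) and 55.5% (KO) of cells at sham to 35.0% (WT) and 23.4% (KO) at 72 h, and angiogenic-like cells hold 57.9% of the UMIs in WT at 72 h.

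Within capillary-like cells the 72 h levels were closer to sham for 6 of 7 members in WT, all but Gpihbp1, and for 7 of 7 in KO. These cells numbered 1146 and 1659 at sham (WT and KO) and 78 and 54 at 72 h. They were grouped by genes that vary with the members: Timp4, a capillary marker, was the gene most like Lpl (r 0.97). The cluster is thus not independent of the members' levels, and cells that lost capillary genes may fall outside it. Cd36 there stood at 3562 CPM (3506 to 3619) in WT sham, 6149 (6007 to 6294) at 24 h and 3360.4 (3125 to 3609) at 72 h. In KO it stood at 4355 (4305 to 4405), 5203 (5054 to 5355) and 3074 (2790.5 to 3379). The log2 ratio of 72 h to sham was −0.08 (−0.19 to 0.02) in WT and −0.50 (−0.64 to −0.37) in KO, against −1.47 and −1.85 in all endothelial cells. Fabp4 gave −0.12 in WT and −0.42 in KO, and Tcf15 −0.16 (−0.39 to 0.06) and −0.39. The Meox2 ratios were −0.21 (−0.64 to 0.19) and 0.04 (−0.52 to 0.55), so their intervals included 0 in both genotypes.

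Gpihbp1 and Lpl parted in direction at 72 h in WT capillary-like cells, and both stood below sham in KO. Gpihbp1 stood at 1604 CPM (1566 to 1642), 3168 (3066 to 3273) and 2650.1 (2442 to 2872) in WT and at 2106 (2071 to 2141), 3512 (3389.8 to 3637) and 1716 (1506 to 1947) in KO. Its 72 h level was above sham in WT (log2 ratio 0.72, 0.60 to 0.85) and below in KO (−0.30, −0.49 to −0.11). Lpl stood at 734 CPM (709 to 760.1), 1254 (1189.7 to 1320.0) and 413 (333 to 506) in WT, and at 862 (840.2 to 885), 1150.0 (1081 to 1223) and 365 (271 to 479) in KO. It was the lowest member relative to sham in WT at 72 h (−0.83, −1.14 to −0.53), and in KO (−1.24, −1.67 to −0.84) it was below all but Pparg, which rested on 4 UMIs there (−1.99, −3.87 to −0.63). At 72 h against sham, 0 of 7 members were 2-fold lower in capillary-like cells in WT, where 10.2% of genes were, and 2 of 7 (Lpl and Pparg) in KO, where 8.84% were. The WT capillary-like cells held 225271 UMIs at 72 h against 4296902 at sham. Genes in these shares were not matched to the members by count, and those with few UMIs can pass 2-fold through counting error. From 24 h to 72 h, 1 of 7 (Lpl) was 2-fold lower in WT capillary-like cells, where 6.91% of genes were, and 3 of 7 (Lpl, Gpihbp1 and Pparg) in KO, where 6.41% were. Lpl had log2 ratios of −1.60 (−1.92 to −1.30) and −1.66 (−2.09 to −1.25) there, with overlapping intervals in the 2 genotypes.

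At 24 h, capillary-like cells of both genotypes held more Cd36, Fabp4, Gpihbp1 and Lpl than at sham. In WT the log2 ratios were 0.79, 0.50, 0.98 and 0.77, and in KO 0.26, 0.26, 0.74 and 0.42, each above 0 beyond counting error. Tcf15 was lower in both (−0.34 and −0.39). Meox2 was lower in WT (−0.35, −0.55 to −0.14) and not distinguishable from sham in KO (0.08, −0.14 to 0.29). Arterial-like cells gave larger ratios in WT, 0.99 for Cd36, 0.76 for Fabp4, 1.21 for Gpihbp1 and 1.11 for Lpl, and 0.29, 0.29, 0.92 and 0.37 in KO. In WT, 2 of 7 members (Gpihbp1 and Lpl) were 2-fold higher in arterial-like cells, where 1.48% of genes were, and 0 of 7 in KO, where 1.52% were.

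**Figure D4:**
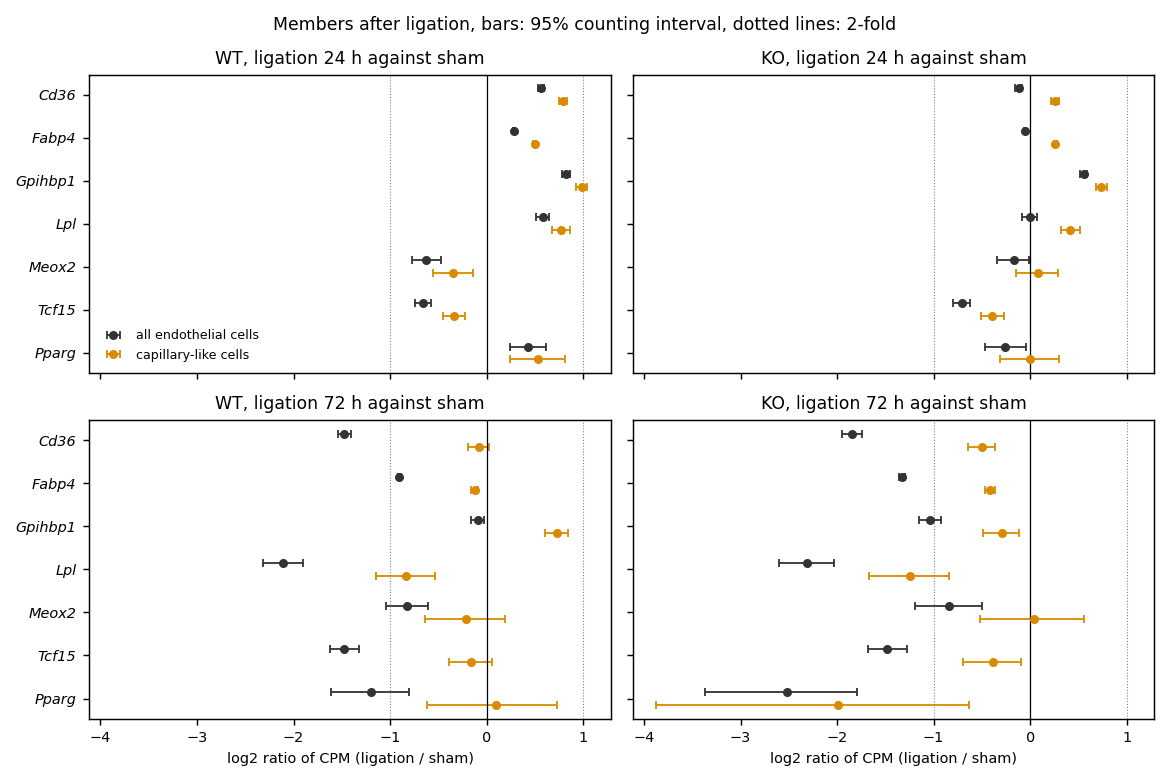
Log2 ratio of CPM in ligation against sham for each member, in all endothelial cells (black) and capillary-like cells (orange), with 95% counting intervals and dotted lines at 2-fold. In the 72 h panels the capillary-like points lie closer to 0 than those of all endothelial cells (Cd36 in WT −0.08 against −1.47), except for Gpihbp1 in WT (0.72 against −0.09).

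Angiogenic-like and endocardial-like cells held the members at lower levels. In WT at 72 h Cd36 stood at 567 CPM in angiogenic-like, 160 in endocardial-like and 2637 in arterial-like cells, against 3360.4 in capillary-like cells. These clusters held 67, 23, 31 and 78 cells in that library. Fabp4 stood at 11774, 5089 and 22590 CPM in the same order, against 29738. Before 72 h, Cd36 was not lower in arterial-like than in capillary-like cells. It stood at 3621 against 3562 CPM in WT sham and 4382 against 4355 in KO sham, with overlapping intervals. At 24 h after ligation it stood at 7199 against 6149 CPM in WT and 5367 against 5203 in KO. Arterial-like cells also held more Pparg at sham (106 against 87.3 CPM in WT, 145 against 114 in KO). Fabp4, Gpihbp1, Lpl, Meox2 and Tcf15 were lower there at sham. Within angiogenic-like cells Lpl went from 270 CPM at 24 h to 34.2 at 72 h in WT (log2 ratio −2.98, −3.59 to −2.42), and Cd36 from 1350.4 to 567 (−1.25), while Gpihbp1 (−0.36) and Fabp4 (−0.28) were less than 2-fold apart. With Pparg (−1.67), 3 of 7 members were 2-fold lower there, where 11.4% of genes were. Lymphatic endothelial cells held at most 254 CPM of Cd36 and 47.2 of Lpl in any library.

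KO and WT differed by less than 2-fold in endothelial cells for each member at all 3 conditions, so 0 of 7 members were called lower, where 1.16%, 1.06% and 1.41% of genes were, and 0 of 7 higher, where 0.38%, 0.969% and 2.43% were (sham, 24 h, 72 h). At sham, 6 of 7 members were higher in KO, from a log2 ratio of 0.09 for Tcf15 to 0.48 for Gpihbp1, and Meox2 was lower (−0.32, −0.41 to −0.23). After ligation at 24 h, Cd36 (−0.37, −0.40 to −0.33), Lpl (−0.30) and Fabp4 (−0.22) were lower in KO and Gpihbp1 was higher (0.21). At 72 h, Fabp4 (−0.30), Gpihbp1 (−0.47) and Pparg (−0.88, −1.80 to −0.03) were lower in KO, while the intervals of the other 4 included 0.

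Shares of cells with a UMI were compared after each cell was thinned to 1000 UMIs, which left out 8 to 41 endothelial cells per library. In capillary-like cells Lpl was detected in 48.2% (45.3 to 51.2) of cells in WT sham, 64.3% (58.1 to 70.2) at 24 h and 33.8% (23.2 to 45.7) at 72 h. In KO the shares were 52.9% (50.4 to 55.3), 59.3% (53.4 to 65.0) and 47.1% (32.9 to 61.5), so the intervals of 72 h and sham overlapped in both genotypes. Gpihbp1 was detected in 73.5%, 89.4% and 85.1% in WT and 85.4%, 92.1% and 82.4% in KO. Without thinning the Lpl shares were 79.8%, 90.7% and 56.4% in WT, and 83.7%, 85.8% and 59.3% in KO. In thinned neutrophils, taken as the background, Lpl was detected in at most 1.05% of cells and Gpihbp1 in at most 2.44%. Neutrophil median depths before thinning were 1973.5 to 3162 UMIs, against 2057.5 to 4097 in capillary-like cells.

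Outside endothelial cells, Lpl and Cd36 were held by monocyte/macrophage cells, which take up lipids, and Lpl by fibroblasts. Other classes stood higher for Cd36 at sham. These were platelets (297 CPM) and pericytes (277 CPM) in WT. In KO they were the class named for cardiomyocyte markers (543 CPM), platelets (493 CPM), pericytes (256 CPM) and smooth muscle cells (203 CPM). Lpl in monocyte/macrophage cells stood at 423, 318 and 168 CPM in WT (sham, 24 h, 72 h) and 300.1, 135 and 163 in KO. Per 1000 Fabp4 UMIs there were 2479 Lpl UMIs in monocyte/macrophage cells of WT sham and 41.9 in neutrophils, so the 2 classes did not hold the genes in 1 ratio. In fibroblasts Lpl stood at 378, 216 and 128 CPM in WT and 321, 256 and 203 in KO. The log2 ratio of 72 h to sham was −1.33 and −0.88 (WT and KO) in monocyte/macrophage cells and −1.56 and −0.66 in fibroblasts. The mix of clusters within these classes differed between sham and 72 h, and its part in these ratios was not tested. Of the fibroblasts, cluster 12 held 301 and 308 cells at sham (WT and KO) and 37 and 27 at 72 h, and cluster 11 held 4 and 1 at sham and 95 and 841 at 72 h, with cluster 23 at 385 cells in KO at 72 h. Of the monocyte/macrophage cells, clusters 6 and 16 held 416 and 223 cells in WT sham and 178 and 46 in WT at 72 h, while clusters 9 and 14 held 17 and 7 in WT sham and 548 and 546 in WT at 72 h. In KO, clusters 6 and 16 held 284 and 219 cells at sham and 165 and 44 at 72 h, and clusters 9 and 14 held 15 and 3 at sham and 351 and 200 at 72 h. Clusters 3 and 10 held cells at both times. They held 201 and 108 cells in WT sham and 348 and 205 in WT at 72 h. In KO they held 164 and 85 cells at sham and 319 and 160 at 72 h. The KO fibroblasts at 72 h had a median of 1086 UMIs, against 8784 to 10801 in the other libraries.

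Cd36 in monocyte/macrophage cells, held by the same changing clusters, stood at 171, 127 and 80.9 CPM in WT and 197, 89.7 and 79.5 in KO. Pparg there went from 10.2 and 4.91 CPM at sham and 24 h to 17.9 at 72 h in WT, and from 5.55 and 3.26 to 18.1 in KO. Its log2 ratio of 72 h to sham was 0.81 (0.51 to 1.13) in WT and 1.70 (1.22 to 2.21) in KO against −1.19 and −2.52 over all endothelial cells. In WT capillary-like cells Pparg stood at 87.3 CPM at sham and 93.2 at 72 h (log2 ratio 0.10, −0.61 to 0.73). Among mural cells, which wrap vessels, Fabp4 stood at 1651 to 4965 CPM in pericytes, and Tcf15 at 204 to 475 CPM in smooth muscle cells, against 0.635 to 9.11 in neutrophils. At KO sham the pericyte level of Fabp4 was 2996 CPM, below the 3453 CPM of platelets. The highest of these smooth muscle values came from a 72 h library, where endothelial cells held less Tcf15 (265 CPM in WT and 281 in KO). Pericytes and smooth muscle cells numbered 15 to 220 per library.

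Other genes of the pathway were read from 4 lists of 49 genes. At 24 h against sham in endothelial cells, 0 of 5 measured lipoprotein genes, 0 of 11 uptake genes, 0 of 11 storage and oxidation genes and 1 of 13 regulators were 2-fold lower in WT, and 1, 0, 1 and 0 were 2-fold higher; the KO library gave the same counts among 6, 11, 12 and 13 measured. The higher genes were Angptl4, an inhibitor of lipoprotein lipase, and Hilpda, an inhibitor of lipid breakdown in lipid droplets, and the lower gene was Aplnr, the receptor of apelin. Across the genome, 3.68% of genes were 2-fold higher in WT and 3.47% in KO.

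Angptl4 stood at 24.9 CPM in WT sham, 148 at 24 h and 116 at 72 h, and at 34.4, 89.1 and 60.4 in KO. Its 24 h log2 ratio was 2.57 (2.33 to 2.81) in WT and 1.37 (1.12 to 1.62) in KO. In capillary-like cells it stood at 31.7, 164 and 44.4 CPM in WT and 37.9, 79.7 and 28.6 in KO. The 72 h levels there were nearer to sham than to 24 h, but rest on 10 (WT) and 4 (KO) UMIs. Hilpda had 24 h log2 ratios of 2.11 and 1.74 over all endothelial cells. In capillary-like cells it stood at 19.3, 33.9 and 44.4 CPM in WT, less than 2-fold higher at 24 h than at sham. In KO it stood there at 19.5, 50.5 and 21.4 CPM. Those 72 h levels rest on 10 and 3 UMIs. Aplnr stood at 157, 44.1 and 207 CPM in WT and 143, 59.9 and 199 in KO, lowest at 24 h in both.

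At 72 h against sham, Lipe and Aqp7 were 2-fold lower in both genotypes. Lipe, hormone-sensitive lipase, had log2 ratios of −1.42 in WT and −1.63 in KO, and Aqp7, a glycerol channel, of −1.18 and −1.83. Mgll, which splits monoglycerides, was 2-fold lower in KO (−1.40) and not in WT (−0.94), and so was Cav2, a caveolin (−1.10 and −0.90). In the 2 genotypes, 5 of 41 and 6 of 41 measured list genes were 2-fold lower, against 10.4% and 8.53% of all genes. In capillary-like cells Aqp7 (0.35 and −0.57) and Lipe (−0.38 and −0.22) were within 2-fold of sham. Of all list genes measured there, 0 were 2-fold lower at 72 h in WT, and 2 regulators were in KO. The shares of all genes were 10.2% and 8.84%. Mgll there went from 1083 CPM at sham to 1398 at 72 h in WT, and from 1407 to 1080 in KO. Of the other genes past 2-fold at 72 h in all endothelial cells, Fabp3 (−2.39, 9 UMIs), Rxra (−1.29, 17 UMIs) and Flt1, a VEGF receptor (−1.12), were lower in WT. Slc27a4 (1 UMI) and Dgat1 (4 UMIs) were lower in KO. Flt1 in WT capillary-like cells stood at 904 CPM at sham and 830 at 72 h. Higher were Meox1, the paralog of Meox2, in WT (1.04), Hif1a (1.02) and Hilpda (1.35) in KO, and Lrp1 in both (1.58 and 3.66), a gene that monocyte/macrophage cells also express. In WT capillary-like cells Meox1 went from 81.2 CPM at sham to 146 at 72 h. In KO capillary-like cells Hif1a went from 95.9 to 122 CPM, and Hilpda from 19.5 to 21.4 (3 UMIs). Lrp1 had 0 (WT) and 1 (KO) UMIs there at 72 h. Between genotypes, over all endothelial cells, Dgat1 was higher in KO at 24 h (1.08) and Lrp1 at 72 h (2.26).

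Fabp5, a chaperone of the same family as Fabp4, did not follow it: in endothelial cells it stood at 2052, 1168 and 2235 CPM in WT and 2037, 1622 and 2554 in KO. Its lowest library in each genotype was the one at 24 h after ligation, where Fabp4 in WT was highest. Ppard, another PPAR, stood at 19.7, 17.6 and 17.2 CPM in WT and 14.3, 17.6 and 8.05 in KO. Foxo1, a regulator of metabolism, stood at 62.4, 49.8 and 40.2 CPM in WT and 48.2, 61.7 and 55.0 in KO.

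**Figure D5:**
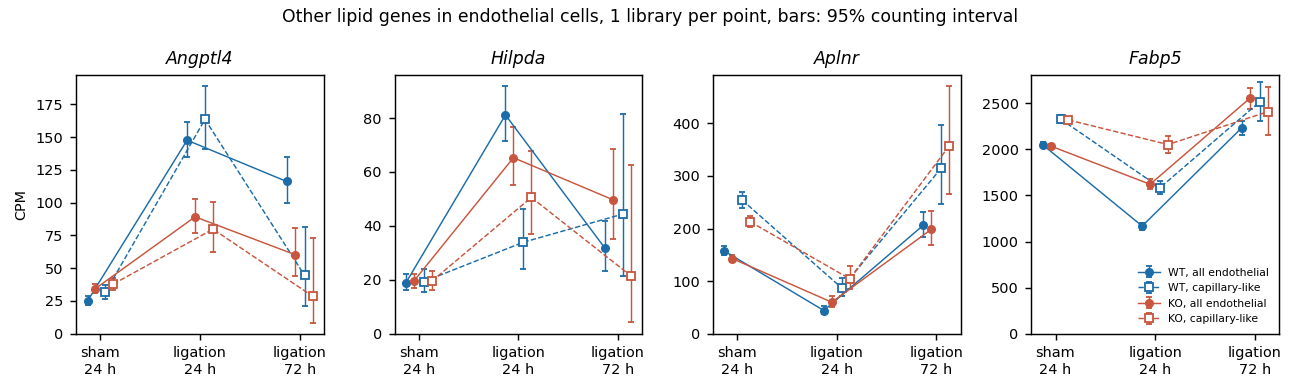
CPM of Angptl4, Hilpda, Aplnr and Fabp5 in endothelial cells (filled circles) and capillary-like cells (open squares) at sham 24 h, ligation 24 h and ligation 72 h, in WT (blue) and KO (red), with 95% counting intervals. Angptl4 is highest at 24 h (148 CPM in WT and 89.1 in KO), whereas Aplnr and Fabp5 are lowest there in both genotypes.

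The genes whose levels were most like those of a member were found by Pearson's r of log2(CPM + 10). Over 40 units of a class in a library, which share libraries and differ in depth, Gpihbp1 was most like Adgrl4 (0.99), Ptprb (0.98) and Cdh5 (0.98), and Meox2 most like Tspan7 (0.98). Cd36 was most like Pdgfb (0.94), Fabp4 most like Slc9a3r2 (0.95), Tcf15 most like Kcna5 (0.97), Lpl most like Sash1 (0.91) and Pparg most like Kank3 (0.90). Over 21 units of an endothelial cluster in a library, Cd36 was most like Cd300lg (0.98) and Fabp4 (0.98), Lpl most like Timp4 (0.97), and Tcf15 most like Lims2 (0.99). These values describe the units and carry no test.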

How the data were processed

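The authors deposited UMI counts, whole numbers for each gene in each cell. Their headers name Cell Ranger 6.0.0, and the submitters' processing notes name mm10. The counts were used as deposited. Features and barcodes were read as names. Every deposited cell held at least 500 UMIs. Cells needed 200 genes and at most 20% mitochondrial UMIs; Scrublet scores were used to remove the highest 0.8% per 1000 deposited cells (1708 cells). The 2000 most variable genes, without the 7 members, gave 30 principal components, 20 neighbours and Leiden clusters at resolution 1 (scanpy 1.11.5, leidenalg 0.10.2; 37 clusters, 5 unnamed, holding 2863 cells). Clusters took the marker list that stood highest over clusters, with at least 3 markers in 10% of cells, and stayed unnamed where another list had more markers among the 10 leading genes, or UMIs were low with no leading marker. UMI sums were scaled to the class total (CPM), with exact Poisson intervals, and ratios with the exact conditional interval of 2 Poisson counts. A count of 0 was set to 3 counts. Ratios needed 50 cells in both libraries and were checked on simulated data. The members and lists were chosen with earlier results of these data known. All 7 members were reported; of the list genes, those at least 2-fold different in endothelial cells and Angptl4, Fabp5, Ppard, Foxo1 and Aplnr were named, except 1 that is not reported here. Sequences came from RefSeq.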

Additional observations from a re-analysis of the deposited data

Results flagged for a closer look

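At 24 h against sham, 3 members had log2 ratios of opposite sign in WT and KO when all endothelial cells were summed. Cd36 had a log2 ratio of 0.56 in WT and −0.12 in KO, Fabp4 0.29 and −0.053, and Pparg 0.43 and −0.26. In capillary-like cells at 24 h Cd36 and Fabp4 were above sham in both genotypes, so the opposite direction was not seen there, and KO Pparg stood at 114 CPM at sham and 113 at 24 h (−0.32 to 0.30 for the log2 ratio). Over the alternative settings the KO ratio at 24 h ran from −0.30 to 0.27 for Cd36 and from −0.12 to 0.27 for Fabp4, so its direction turned. In those cells at 72 h Gpihbp1 had a log2 ratio of 0.72 in WT and −0.30 in KO. Each ratio rests on 1 library a group, and the difference between genotypes was not tested.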

How the results depend on the processing

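No paired analysis was possible because each group is 1 library and the labels give no replicate numbers; for the same reason no replicate could be left out. The members' median log2 ratio and count of members 2-fold lower moved as follows, and the cause was not tested; settings marked added were chosen after seeing the data. In capillary-like and arterial-like clusters only (added), the median was 0.62 (WT) and 0.27 (KO) for 24 h against sham, −0.17 with 0 lower and −0.50 with 2 lower for 72 h against sham, −0.64 with 2 and −0.90 with 3 for 72 h against 24 h, and −0.23 for KO against WT at 72 h. With cells thinned to 1000 UMIs, it was 0.037 for KO at 24 h, −0.49 with 0 lower and −1.19 (KO) for 72 h against sham, −0.55 with 2 and −1.35 for 72 h against 24 h, and 0.19, −0.068 and −0.55 with 1 lower for KO against WT at sham, 24 h and 72 h. As a mean over cells, it was 0.023 for KO at 24 h, −0.51 with 1 lower for WT at 72 h, −0.80 with 2 for WT 72 h against 24 h, and 0.23, −0.12 and −0.79 with 1 lower for KO against WT. At Leiden resolution 0.5, it was 0.12 for KO at 24 h, −0.58 with 1 lower (WT) and −1.16 (KO) at 72 h, −1.08 for WT 72 h against 24 h, and −0.46 with 1 lower for KO against WT at 72 h. For KO at 24 h against sham, it was −0.20 with no doublet removal, −0.21 with a marker gate, −0.21 with mitochondrial UMIs at most 10% and −0.18 with lymphatic cells added (added). For KO at 72 h against sham, it was −1.97 with the gate, −1.91 with a low-UMI cluster (added) and −2.04 with lymphatic cells. For WT 72 h against 24 h, it was −1.12 with no doublet removal, −1.33 with the gate, −1.28 at 10% mitochondrial UMIs, −1.24 with the low-UMI cluster, −1.26 with lymphatic cells, −1.08 when scaled by the median ratio and −1.23 without the barcode with most UMIs. For KO 72 h against 24 h, it was −1.72 with the gate, −1.73 with the low-UMI cluster and −1.78 with lymphatic cells. For KO against WT, it was 0.41 (sham), −0.27 (24 h) and −0.023 (72 h) at 10% mitochondrial UMIs, 0.35, −0.16 and −0.25 when scaled by the median ratio, −0.23 (24 h) and −0.46 (72 h) with the low-UMI cluster, −0.20 and −0.43 with lymphatic cells, −0.25 (72 h) at 1500 UMIs per cell and −0.19 (72 h) with the gate, and 1 member was lower at 72 h without the top barcode. Lrp1 in WT at 72 h against sham reversed to −0.041 as a mean over cells. At 72 h depth limits Pparg most, with 15 UMIs in KO endothelial cells.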
